A study of Mus musculus with 2 samples.

Results

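The genes Fndc3b, Cmip and Nxn each carried a long run of 5-hydroxymethylcytosine (5hmC) peaks in mouse embryonic fibroblasts (MEFs) at passage 0. The members are all peaks that share a base with 3 mm9 windows, chr3:27310000-27615000 for Fndc3b, chr8:119775000-119990000 for Cmip and chr11:76065000-76218000 for Nxn. They were chosen by measured values, the passage 0 runs of 25 or more peaks that each holds, so the passage 0 run lengths are described and not tested. They held 147 of the 60157 passage 0 peaks and 9 of the 6726 passage 5 peaks. The rule uses no passage 5 value, but the loci were chosen with earlier results of these data known. Both groups were MEFs of C57BL/6 embryos taken at 13.5 days postcoitum and grown in medium with 10% fetal calf serum. One group was harvested at passage 0 and the other at passage 5, and each is 1 library. The labels name no genotype, no sex and no agent, and do not say how many embryos were pooled. Peak lists hold no expression values, so the fibroblast label was not checked against marker genes. Read depth is unknown.

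5hmC is made from 5-methylcytosine by the TET dioxygenases, mostly where a C is followed by a G. In many cell types it lies within the bodies of transcribed genes and is scarce at CpG-rich promoters. Fndc3b encodes a membrane-associated protein with fibronectin type III repeats that was described as a regulator of adipocyte differentiation. Cmip encodes the c-Maf-inducing protein, a signalling adaptor. Nxn encodes nucleoredoxin, a thioredoxin-family protein that binds Dishevelled and restrains Wnt signalling.

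All 3 genes were found in the RefSeq tables, which use build GRCm38.p6, whereas the peaks are in mm9. Names, gene order, strands and sequences were therefore taken from RefSeq, and no RefSeq position was set beside a peak. Fndc3b and Nxn are on the minus strand and Cmip is on the plus strand. Their RefSeq lengths are 295.2 kb, 204.5 kb and 141.9 kb, slightly below the window lengths of 305, 215 and 153 kb. Below, the 5′ edge of a window is the edge on the side of the gene's start. The nearest protein-coding genes are Tmem212 upstream and Ghsr downstream of Fndc3b, and Timm22 and Mrm3 for Nxn. RefSeq also lists a lncRNA and Mir3092 inside Fndc3b, and 2 lncRNAs with Mir7077 and Mir7078 inside Cmip. None is listed inside Nxn.

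The promoters are shown because 5hmC forms mostly at CG and each of the 3 genes has a CpG-rich annotated start. Each line gives the 250 bases before an annotated start from RefSeq (GRCm38.p6), 5′ to 3′ on the gene's own strand, with every CG in capitals. Fndc3b and Nxn have 1 entry each and Cmip has 2.
Fndc3b (minus strand): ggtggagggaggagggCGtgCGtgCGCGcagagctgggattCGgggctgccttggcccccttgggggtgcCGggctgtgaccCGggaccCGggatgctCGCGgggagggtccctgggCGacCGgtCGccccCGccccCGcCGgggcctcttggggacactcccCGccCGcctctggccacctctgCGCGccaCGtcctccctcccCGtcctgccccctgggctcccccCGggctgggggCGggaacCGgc
Cmip, upstream start (plus strand): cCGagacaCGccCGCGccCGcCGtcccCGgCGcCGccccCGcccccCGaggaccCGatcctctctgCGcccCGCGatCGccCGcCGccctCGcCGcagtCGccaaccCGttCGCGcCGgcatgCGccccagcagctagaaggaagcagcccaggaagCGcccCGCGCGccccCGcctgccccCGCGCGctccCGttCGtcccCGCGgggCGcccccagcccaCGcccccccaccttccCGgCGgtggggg
Cmip, internal start (plus strand): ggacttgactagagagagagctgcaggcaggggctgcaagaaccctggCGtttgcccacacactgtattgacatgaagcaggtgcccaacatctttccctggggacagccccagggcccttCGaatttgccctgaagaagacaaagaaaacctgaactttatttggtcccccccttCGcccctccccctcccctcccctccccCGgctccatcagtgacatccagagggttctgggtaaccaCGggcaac
Nxn (minus strand): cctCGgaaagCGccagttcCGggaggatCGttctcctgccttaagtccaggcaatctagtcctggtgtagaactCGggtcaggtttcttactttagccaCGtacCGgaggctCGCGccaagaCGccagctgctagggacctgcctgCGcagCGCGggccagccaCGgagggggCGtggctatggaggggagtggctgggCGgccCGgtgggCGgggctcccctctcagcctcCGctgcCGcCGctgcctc

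These stretches hold 25 CG in Fndc3b, 42 and 5 at the upstream and internal starts of Cmip, and 21 in Nxn. Over 32851 promoter stretches of this length the median was 6. At least 42 CG were found in 0.865% of them, at least 25 in 10.7%, at least 21 in 16.3% and at least 5 in 55.6%. The upstream Cmip promoter is thus among the CpG-richest in the table, and the internal one is near the middle. The sequences of the peaks themselves were not used here.

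Within the windows, the runs of passage 0 peaks lay at different places along the genes. A run is a series of peaks in which each is at most 5 kb from the next. In Fndc3b the run held 27 of the 50 peaks, at chr3:27536879-27604299, and began 10.7 kb from the 5′ edge of the window. It ended 78.1 kb from that edge, so it filled 22.1% of the window, all within the 5′ part of the gene. In Cmip the run held 27 of the 55 peaks, at chr8:119801603-119868916, and reached from 26.6 to 93.9 kb behind the 5′ edge. In Nxn the run held 25 of the 42 peaks, at chr11:76097057-76156799, and reached from 61.2 to 120.9 kb behind the 5′ edge. As shares of the window, the runs spanned 3.51% to 25.6% in Fndc3b, 12.4% to 43.7% in Cmip and 40.0% to 79.0% in Nxn. The Fndc3b and Cmip runs therefore lay toward the gene start, and the Nxn run lay in the middle and 3′ part.

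**Figure D1:**
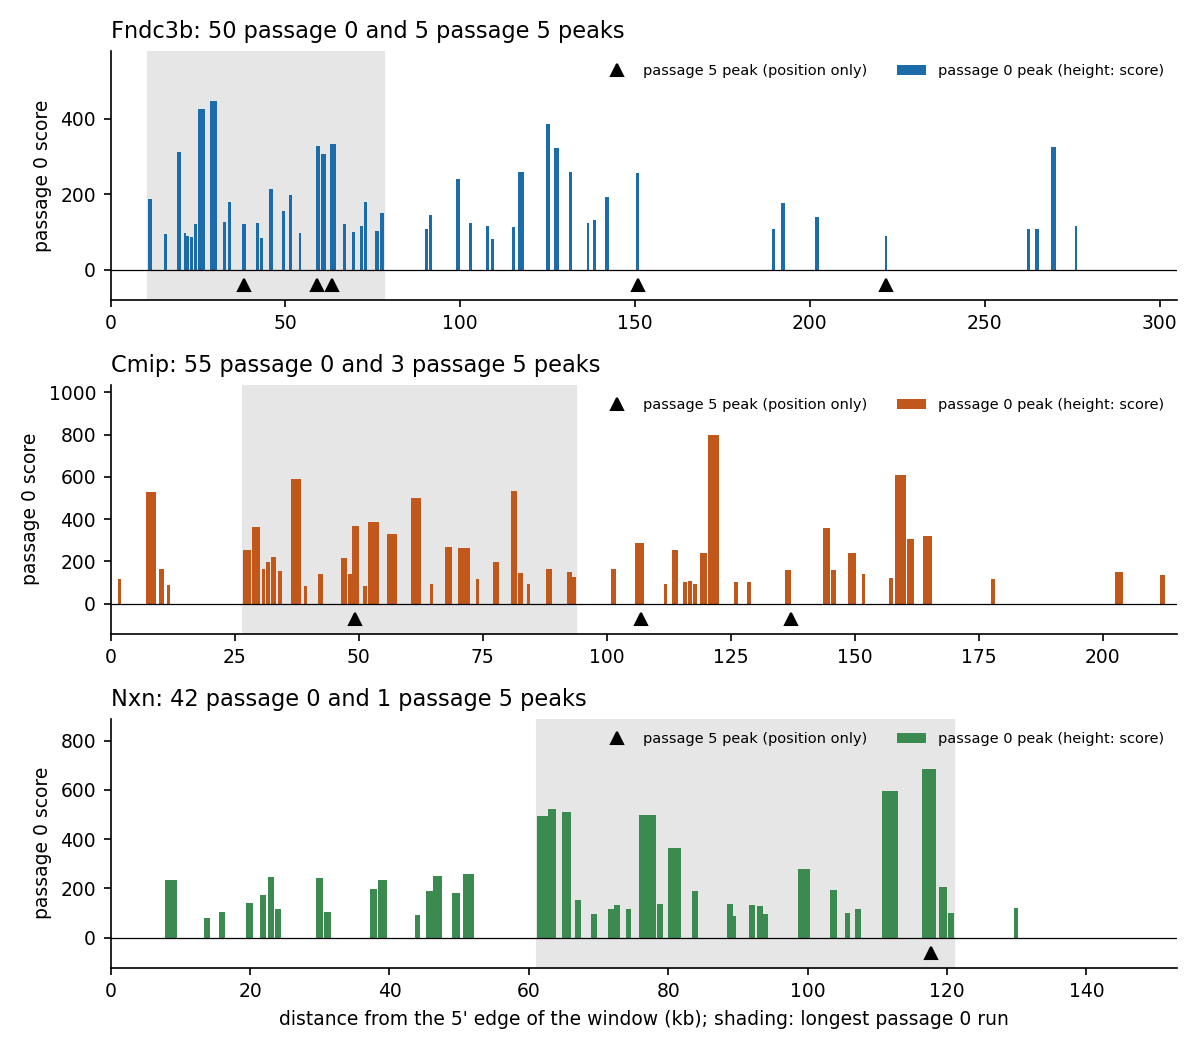
Passage 0 peaks (bars, as wide as the peak, height the deposited score) and passage 5 peaks (triangles, position only) by distance in kb from the 5′ edge of each window, with the longest run shaded. The runs hold 27, 27 and 25 peaks, and 5, 3 and 1 passage 5 peaks lie in the windows of Fndc3b, Cmip and Nxn.

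The runs were alike in length and density. They extended over 67.4 kb in Fndc3b, 67.3 kb in Cmip and 59.7 kb in Nxn, and peaks covered 41.8%, 49.5% and 47.4% of the bases in them. Inside the runs there were 40.0, 40.1 and 41.8 peaks per 100 kb. The rest of the windows held 9.68 peaks per 100 kb in Fndc3b, 18.96 in Cmip and 18.2 in Nxn. Outside its run Fndc3b was thus the sparsest of the 3. Run length was what chose these windows, and gaps in a run are at most 5 kb. The likeness of the runs and their higher density than the rest of the windows thus follow in part from the definition. In the whole passage 0 list 5 runs had 25 or more peaks. The Nxn run was the only one of exactly 25, there were none of 24 or 26, and 2 runs had 23. The 5 longest runs were those of the 3 genes and runs of 38 peaks at chr10:119803451-119906559 and of 34 at chr8:11322439-11405983. The runs of 38 and 34 peaks extended over 103.1 and 83.5 kb, and peaks covered 58.1% and 47.8% of their bases.

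Over the whole windows, the share of peaks toward the 5′ side was highest in Fndc3b, while Cmip and Nxn were close to each other. Of the Fndc3b peaks, 42 had their midpoint in the 5′ 50% of the window and 8 in the 3′ 50%, a 5′ share of 84.0% (95% exact binomial interval 70.9% to 92.8%). In Cmip the numbers were 33 and 22, or 60.0% (45.9% to 73.0%), and in Nxn 24 and 18, or 57.1% (41.0% to 72.3%). Only the Fndc3b interval leaves out 50%, but an even split was not tested. The runs of 27 peaks in Fndc3b and in Cmip lay wholly in the 5′ 50%. The 5′ shares of these genes therefore largely restate where the chosen runs lie. These intervals treat peaks as independent, and since peaks gather in runs they are too narrow. When each window was cut into 5 equal parts from the 5′ edge, Fndc3b held 20, 15, 7, 4 and 4 peaks, with most near the start of the gene and fewest toward its end. Cmip held 13, 15, 14, 9 and 4 peaks, nearly level over the first parts and lower after them. Nxn held 8, 8, 14, 11 and 1 peaks, with its most peaks in the middle part. The last part was the one with the fewest peaks, or tied for it, in all 3 genes. Bases covered in these parts followed the same course, from 34.3% in the first part to 6.37% in the last in Fndc3b, from 46.0% in the second part to 7.70% in the last in Cmip, and from 51.1% in the third to 2.20% in the last in Nxn.

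**Figure D2:**
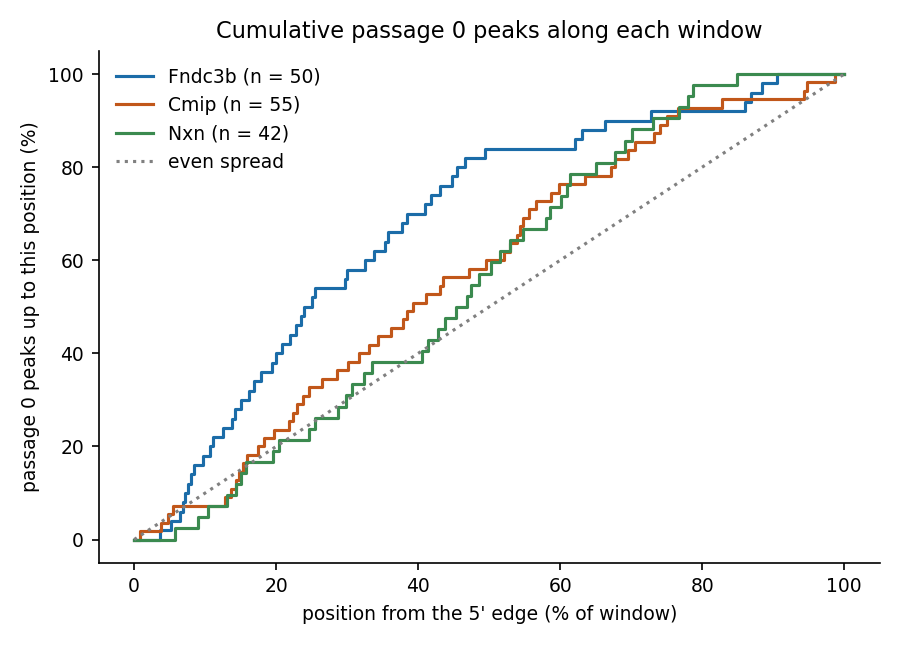
Percent of passage 0 peaks (y) reached up to each position from the 5′ edge, as a percent of the window (x), for the 50, 55 and 42 peaks of Fndc3b, Cmip and Nxn, with a dotted line for an even spread. The Fndc3b line rises steeply at the 5′ side, while the Nxn line stays near the dotted line until about the start of its run.

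Long peak-free stretches broke up the Fndc3b window but not that of Nxn. The largest gap between neighbouring peaks was 40.0 kb in Fndc3b, 24.2 kb in Cmip and 9.13 kb in Nxn. Gaps above 5 kb numbered 10 of 49, 8 of 54 and 4 of 41. At the window edges, no passage 0 peak lay in the first 10.7 kb of Fndc3b, 1.39 kb of Cmip or 7.85 kb of Nxn on the 5′ side, or in the last 28.6, 2.46 and 22.8 kb on the 3′ side. The 5′ ends of the windows were thus bare over a few kb or more except in Cmip. Whether the starts of the genes lie in these bare stretches was not determined, because the start positions at hand are in another build.

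Neighbouring passage 0 peaks lay about 1 to 2 kb apart in each of the 3 windows. The median gap over the window was 1985 bases in Fndc3b (binomial limits of the median 1335 to 2912), 1289 in Cmip (572 to 2349) and 999 in Nxn (465 to 1603). The medians fell from Fndc3b over Cmip to Nxn, but these limits overlap and the order was not tested. The median over the whole passage 0 list was 8627 bases. Gaps under 1 kb made up 13 of 49 in Fndc3b, 25 of 54 in Cmip and 21 of 41 in Nxn, together 41.0% against 13.4% in the whole list. Gaps under 200 bases numbered 4, 8 and 10, and the shortest were 74, 25 and 7 bases. When peaks within 1 kb were merged, the windows held 37, 30 and 21 passage 0 peaks in place of 50, 55 and 42, so that close neighbours made up the most in Nxn. Short gaps are part of what chose these windows. Within the runs alone, the median gap was 1410 bases in Fndc3b, 1042 in Cmip and 776 in Nxn, and the largest were 4021, 3575 and 4334. The distance from midpoint to midpoint in the runs had medians of 2647, 2266 and 2070 bases. In the other 2 runs of 25 or more peaks the median gap was 925.5 bases.

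**Figure D3:**
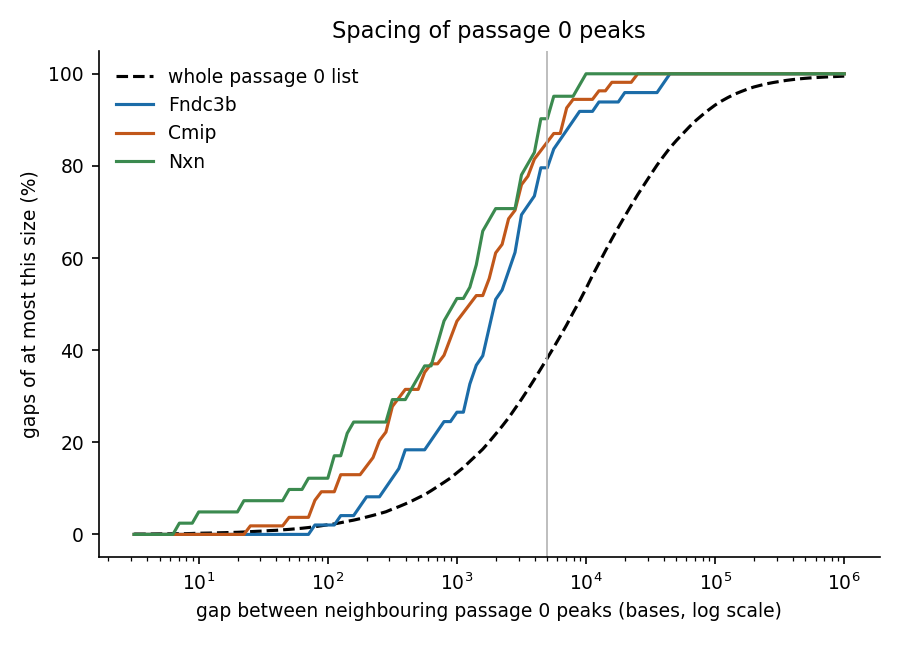
Percent of gaps between neighbouring passage 0 peaks (y) that are at most as large as the value on the log-scaled x axis in bases, for the 3 windows and for the whole passage 0 list (dashed), with the 5 kb run limit as a grey line. The medians are 1985, 1289 and 999 bases in Fndc3b, Cmip and Nxn and 8627 bases in the whole list.

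The run lengths depended on the gap allowed. With at most 2 kb between peaks the longest runs were 9, 8 and 12 peaks in Fndc3b, Cmip and Nxn. With up to 10 kb they were 27, 47 and 42, so that the Nxn window became a single run of all its peaks while the Fndc3b run did not grow.

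The passage 0 peaks of the 3 loci varied widely in score and width. Scores, the authors' own value per peak, ran from 81.9 to 446 in Fndc3b with a median of 129, from 82.0 to 797 in Cmip with a median of 162, and from 81.3 to 684 in Nxn with a median of 163. The Fndc3b median equalled that of the whole list, 129, and the other 2 lay above it. Scores from 192 upward form the upper 25% of the whole list, and 16 of 50 peaks in Fndc3b, 24 of 55 in Cmip and 17 of 42 in Nxn reached that class. Median widths were 919, 1019 and 917 bp, against 850 bp in the whole list. Peaks above 2 kb numbered 1 in Fndc3b, 7 in Cmip and 2 in Nxn, together 6.80% of the members against 2.11% of the list. In the other 2 runs of 25 or more peaks, 12.5% were above 2 kb. Their median width was 1184.5 bp and their median score 217, so high values were not particular to the 3 loci. Within each locus wide peaks were high-scoring ones, with Spearman correlations across peaks of 0.79, 0.91 and 0.88, and 0.79 in the whole list. Peaks of 1 library are not independent replicates.

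The strongest peaks did not always lie in the longest run. In Fndc3b the highest scores were 446 at chr3:27584465-27586504 and 426 at chr3:27588117-27590064, both in the run and also the widest at 2040 and 1948 bp. The third, 386 at chr3:27489349-27490588, lay 3′ of the run. The third widest, 1733 bp at chr3:27550451-27552183, was again in the run, with a score of 333. In Cmip the highest scores lay outside the run, 797 at chr8:119895532-119897670 and 608 at chr8:119933073-119935373, and the latter was the widest peak at 2301 bp. The third, 590 at chr8:119811414-119813388, was in the run, as were the next widest peaks, 2265 bp at chr8:119845092-119847356 and 2192 bp at chr8:119835469-119837660. In Nxn the highest 3, with 684 at chr11:76099639-76101551, 595 at chr11:76105051-76107259 and 523 at chr11:76154054-76155185, were all in the run. So were its widest peaks, 2428 bp at chr11:76139822-76142249, 2209 bp at the site with the score of 595, and 1926 bp at chr11:76136112-76138037. Strong peaks thus lay near both ends of the Nxn run and also inside it, where the widest peak scored 496. The peaks that bound the runs scored 150 and 188 in Fndc3b, 255 and 126 in Cmip, and 101 and 494 in Nxn, in order of coordinates. Median scores inside and outside the run were 127 and 131 in Fndc3b, 197 and 154 in Cmip, and 135 and 182 in Nxn, so that peaks in a run were not uniformly stronger than the others.

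Few peaks were left in the runs at passage 5, with 3 in that of Fndc3b, 1 in that of Cmip and 1 in that of Nxn. Over the whole windows, Fndc3b had 50 peaks at passage 0 and 5 at passage 5, Cmip had 55 and 3, and Nxn had 42 and 1. Passage 5 peaks thus came to 10.0% of those at passage 0 in Fndc3b (95% interval from the exact binomial one 3.11% to 24.9%), 5.45% in Cmip (1.09% to 16.8%) and 2.38% in Nxn (0.0589% to 14.0%). Over the whole lists it was 11.2%. Each of the 3 intervals includes that value and they overlap each other, so no difference of a locus from the whole list, or between loci, was detectable from these counts. Together the loci had 6.12% (2.75% to 11.9%). Peaks covered 50.5 kb at passage 0 and 2.92 kb at passage 5 in Fndc3b, 65.1 and 1.86 kb in Cmip, and 45.9 and 0.576 kb in Nxn, ratios of 17.3, 35.0 and 79.7 beside 14.6 for the whole lists. The Nxn ratio rests on 1 passage 5 peak. The windows were chosen for high passage 0 numbers, which enter each percent and ratio. Lower percents and higher ratios than in the whole lists are therefore favoured by the choice. With 1 library per passage these differences have no replicate check, and a difference in depth or enrichment between the libraries and less 5hmC cannot be told apart.

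Every passage 5 peak in the windows lay on a passage 0 peak. All 9 shared at least 1 base with one (95% exact interval 66.4% to 100%), beside 69.9% of the whole passage 5 list, a value inside that interval. Passage 0 peaks covered 16.5%, 30.3% and 30.0% of the bases of the Fndc3b, Cmip and Nxn windows. The windows were chosen for such dense peaks, so overlap was favoured by the choice. Of the 147 passage 0 members, 9 overlapped a passage 5 peak, or 6.12% (2.84% to 11.3%), beside 7.63% of the whole passage 0 list. That share is near the background. By locus it was 5 of 50, 3 of 55 and 1 of 42. Peaks in the longest runs and the other peaks of the windows differed little, with 5 of 79 and 4 of 68. In the other 2 runs of 25 or more peaks it was 6 of 72, or 8.33% (3.12% to 17.3%). They held 2 and 8 passage 5 peaks.

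The 5 passage 5 peaks of Fndc3b were spread from 38.1 to 222 kb behind the 5′ edge. The strongest, with a score of 203 at chr3:27576600-27577149, lay in the run on a passage 0 peak with a score of only 120, rank 32 of 50 in the window. The others in the run, at chr3:27555638-27556266 with 137 and chr3:27551382-27551892 with 94.8, lay on the passage 0 peaks ranked 5 and 4. Outside the run, the peak at chr3:27464004-27464566 scored 90.8 and lay on the passage 0 peak ranked 12. The peak at chr3:27392809-27393479 scored 121 and lay on one of the weakest passage 0 peaks of the window, with a score of 89.0 and rank 47. It was the only one of the 9 that was wider than its passage 0 partner, 671 against 608 bp. The 3 highest-scoring passage 0 peaks of Fndc3b had no passage 5 peak.

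In Cmip 1 of the 3 passage 5 peaks lay in the run. It was at chr8:119824030-119824608 with a score of 115, on the passage 0 peak ranked 8 of 55. The peaks at chr8:119881651-119882366, with 130, and at chr8:119911835-119912398, with 90.8, lay 3′ of the run on the passage 0 peaks ranked 14 and 29. The latter shared 64.0% of its bases with its partner, and its midpoint lay 529 bases away. As in Fndc3b, the 3 highest passage 0 scores of Cmip had no counterpart at passage 5.

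The single passage 5 peak of Nxn, at chr11:76100016-76100591 with a score of 103, lay wholly within the highest-scoring passage 0 peak of that gene. This partner, with a score of 684, was 1913 bp wide against 576 bp at passage 5, and it stood near the 3′ end of the run, 118 kb behind the 5′ edge. None of the 17 passage 0 peaks outside the Nxn run had a passage 5 peak, and 17 peaks are too few to show that they differ from the list's 7.63%. Across the 3 loci, 7 of the 9 passage 5 peaks lay wholly inside their passage 0 peak. Passage 5 widths ran from 511 to 716 bp with a median of 576, beside 563 in the whole passage 5 list, and 8 of the 9 partners were 1.99 to 3.39 times as wide.

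The retained sites were not only the strongest ones. Still, the retained share was higher among high-scoring peaks, in the whole list and in the members. In the upper 25% of the whole list by score, 17.3% of passage 0 peaks had a passage 5 peak, and of the members in this class 6 of 57 did, or 10.5% (3.96% to 21.5%). Below it the shares were 4.39% of the list and 3 of 90 members, or 3.33%. In the upper 10%, which begins at a score of 290, it was 24.4% of the list and 4 of 29 members. The members' shares lay below those of the list in each class, but the interval of the upper class includes the list's value, and a difference was not detectable with 9 retained peaks.

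**Figure D4:**
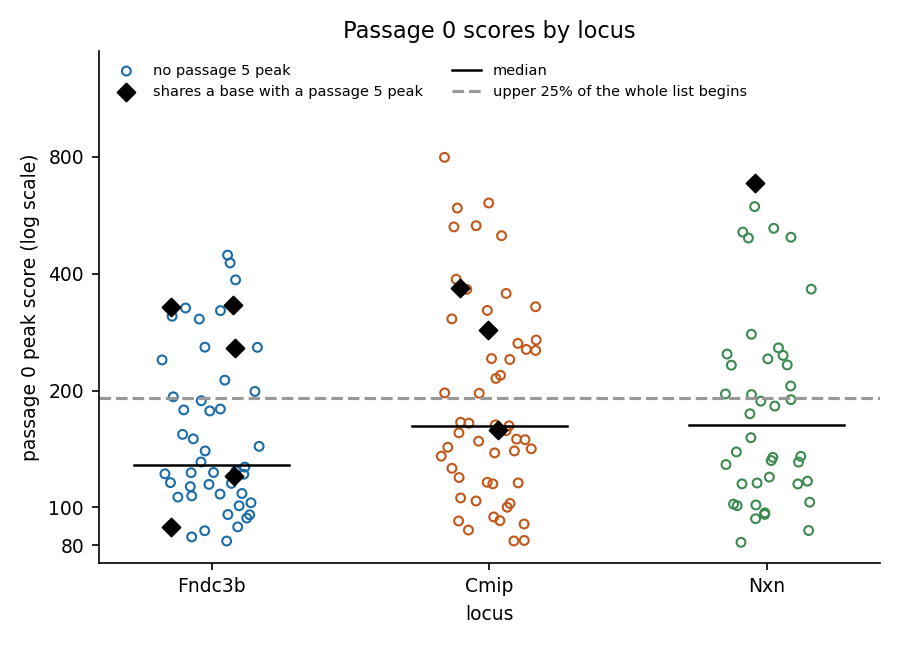
Deposited score (log scale) of each passage 0 peak in Fndc3b (50), Cmip (55) and Nxn (42), with black diamonds for peaks that share a base with a passage 5 peak, a line at each median (129, 162 and 163) and a dashed line where the upper 25% of the whole list begins (192). Diamonds stand at the top in Nxn only, and in Fndc3b they reach down to 89.0.

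Set beside all the autosomes, the windows stood out by the passage 0 peaks they were chosen for, and less by their passage 5 peaks. The autosomes were cut into adjoining tiles as long as each window, and peaks were counted by midpoint. The median tile of the Fndc3b length held 4 passage 0 peaks, and 33 of 8093 held at least 50. For Cmip the median was 2, and none of 11478 tiles reached 55, the fullest holding 54. For Nxn it was 1, and 4 of 16124 tiles held at least 42. At passage 5 the median tile held 0 at each length. Tiles with at least as many passage 5 peaks as the window made up 3.06% for Fndc3b, 6.60% for Cmip and 25.04% for Nxn. The windows were placed to enclose runs and the tiles were not, so these ranks describe the choice of loci at passage 0. Among all tiles, the 5 passage 5 peaks of Fndc3b were more than in most, and the single peak of Nxn was not unusual. Most of these tiles held few passage 0 peaks. The 4 tiles of the Nxn length with at least 42 passage 0 peaks held 2 to 4 passage 5 peaks, against 1 in the Nxn window. The 33 tiles of the Fndc3b length with at least 50 passage 0 peaks held 0 to 14, against 5 in the Fndc3b window. Such tiles are few, and a difference from them was not tested.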

How the data were processed

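Enriched 5hmC fragments were mapped in 1 library per passage. Per the labels' protocols, sonicated DNA was captured with a kit-based GLIB precipitation, which tags 5hmC through its glucosylated form, and sequenced on an Illumina instrument. Build mm9 and the tools MACS 1.4.1, Bowtie 0.12.7 and CASAVA 1.8 are named in the submitters' processing notes. Neither thresholds nor duplicate handling nor any control is stated there. For each library the deposited list gives a position and a score per peak. The score is unnamed, and it was used only within a list. Merging or splitting of peaks by the caller acts on every count and gap given here.

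Peaks sharing a base with a window were members, and coordinates are counted from 1. Peaks of the 2 lists with at least 1 shared base were counted as overlapping. Intervals are 95% exact (Clopper-Pearson) ones, cover counting error only and treat peaks as independent. No p-value is given, since there is no replicate. The loci and measures were chosen with earlier results of these data known. Named within each locus were the ends of the longest run, the 3 highest-scoring and the 3 widest passage 0 peaks, the largest gap in the run and every passage 5 peak. The planned position by gene part was replaced by position in the window, because no mm9 annotation was used here. Run and overlap counts were tested on simulated lists. Alternatives were gaps of 2 or 10 kb, scores of at least 100, the upper 50% by score, merging within 1 kb, 50% of the shorter peak, 500 bases, and the run alone. Python 3.11.15, numpy 2.4.6, pandas 2.3.3, scipy 1.17.1 and matplotlib 3.10.9 were used.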

Additional observations from a re-analysis of the deposited data

How the results depend on the processing

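Of 39 alternative values for 12 results, 28 stayed within the interval of the reported value, or within 1.5 times a run length. The remaining 11 moved beyond these limits. The results are run lengths, percents and median gaps, which have no sign, so a change of direction could not be assessed. Run length moved most. The longest runs of Fndc3b, Cmip and Nxn, reported as 27, 27 and 25 peaks, were 9, 8 and 12 with gaps of at most 2 kb, and 17, 14 and 12 after peaks within 1 kb were merged. With gaps of up to 10 kb they were 47 in Cmip and 42 in Nxn. With scores of at least 100 they were 11 in Fndc3b and 14 in Nxn. These follow from the construction, which joins, removes or combines peaks. The Nxn passage 5 number as a percent of passage 0 was 0 of 27 in the upper 50% of each list, which drops its 1 passage 5 peak. Wide intervals leave little room for a value to move beyond them. No paired analysis was possible because each passage has 1 library, and no replicate could be left out. Unknown depth limits every comparison between passages.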

Other observations

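Peaks were counted in the 100 kb beyond each window edge, a length chosen after the data were seen. There were 5 passage 0 peaks upstream and 2 downstream of the Fndc3b window, 9 and 2 for Cmip, and 6 and 3 for Nxn. Inside, the windows held 16.4, 25.6 and 27.5 per 100 kb. The windows were drawn around runs, so lower numbers outside follow from the choice. Outside its run, Fndc3b held 9.68 per 100 kb within its own window.

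The 6 flanks of 100 kb together held 27 passage 0 and 7 passage 5 peaks, a passage 5 count of 25.9% relative to passage 0 (9.53% to 61.0%), beside 6.12% (2.75% to 11.9%) in the windows. With flanks of 200 kb it was 59 and 10 peaks, or 16.9% (7.73% to 33.4%). The intervals of flanks and windows overlap in both cases, the windows were chosen for high passage 0 numbers, and the difference itself was not tested. Without the flank upstream of Nxn, the other 5 flanks of 100 kb held 21 and 3 peaks, or 14.3% (2.73% to 47.8%). The flank upstream of Nxn, on the side of Timm22 in the RefSeq gene order, held 4 passage 5 peaks against 6 at passage 0, while the whole Nxn window held 1 against 42. Of these 4, the one at chr11:76282893-76283733 overlapped a passage 0 peak. The other 3, at chr11:76228560-76229020 with a score of 141, chr11:76292819-76293593 with 113 and chr11:76310943-76311543 with 101, had none. The other flanks held at most 1 passage 5 peak each, and all 3 of those peaks overlapped a passage 0 peak.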
